A study of Mus musculus with 22 samples.

Results

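Foxo1 and Foxo3, forkhead transcription factor genes, and Klf2, S1pr1, Ccr7 and Il7r, genes of lymphocyte homing and survival, were examined in peak lists from chromatin immunoprecipitation sequencing (ChIP-seq) of mouse Treg cells (regulatory T cells, which restrain immune responses and depend on the transcription factor Foxp3). They are 6 of 21887 protein-coding genes of the RefSeq annotation and were chosen by name, with earlier results of these data known. Their peaks were all those that overlapped one of the 6 gene bodies or the 10 kb on either side, which gave 287 of the 362285 peaks in 18 lists, or 131 of 161247 regions after overlapping peaks of a target were joined. Cells of the IkE5 genotype, labelled IkE5-deletion and called IkE5-deficient in the series' design, were set against wild-type (WT) cells. The name IkE5 is not expanded in the labels, and the title of the series speaks of Ikzf1, which encodes the zinc finger factor Ikaros. Both genotypes came from spleen and lymph nodes and were stimulated for 1 h with a commercial cocktail and fixed in 1% formaldehyde, factor samples for 30 min and histone samples for 5 min. Acetylation of histone H3 at lysine 27 (H3K27ac), the acetyltransferase p300, the calcium-activated factor NFAT1 and Foxp3 were each mapped by 2 libraries in IkE5 and 2 in WT. Ikaros was mapped by 2 libraries, both WT. The age of the animals, their strain, how the deletion was made and whether animals were pooled are not given in the sources used here, and nothing says that libraries came from separate animals, so the spread behind each p-value may be a technical one.

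Foxo1 is held in the nucleus of resting T cells and is sent out of it by kinase signals that follow receptor stimulation. In the nucleus it activates genes that keep lymphocytes circulating and alive, among them Klf2, Ccr7 and Il7r, and Klf2 in turn activates S1pr1. H3K27ac marks active promoters and enhancers, and p300 is among the enzymes that deposit it. A mark that is called in fewer places cannot be told apart, in bulk chromatin, from a mark carried by fewer cells.

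The lists hold positions without a score, so read depth is unknown and list length stands in for it. IkE5 lists held 37152 to 47982 H3K27ac peaks, 8971 to 11670 of p300, 3435 to 4908 of NFAT1 and 17265 to 21619 of Foxp3. WT lists held 35272 to 53032, 8775 to 11457, 6850 to 7825 and 16526 to 20608 of the same targets, and 22297 to 26641 of Ikaros. Both NFAT1 lists of IkE5 were thus shorter than both of WT. All 5 Treg markers and all 3 T cell markers had H3K27ac in every H3K27ac library, with summed covered lengths of 223 to 268 kb in IkE5 and 180 to 256 kb in WT for the Treg markers. Of 4 B cell markers 2 had H3K27ac in every library and 2, Ms4a1 among them, had none in any, and of 4 myeloid markers 2 had it and Lyz2 and Csf1r had none. Of 4 markers of CD8 T and natural killer cells 2 had H3K27ac in each IkE5 library and 3 in each WT library, and Ncr1 had none. The summed lengths of the B cell list were 11.2 to 12.2 kb in IkE5 and 16.2 to 16.4 kb in WT, those of the myeloid list 4.84 to 5.5 kb in IkE5 and 4.67 to 7.81 kb in WT, and those of the CD8 T and natural killer cell list 2.39 to 4.21 kb in IkE5 and 5.03 to 6.73 kb in WT. The part of these cells in the results below was not tested.

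At the 6 genes more H3K27ac regions were found in both WT libraries alone than in both IkE5 libraries alone. Of 54 H3K27ac regions, 1 (1.85%) had a peak in both IkE5 and neither WT library, and 10 (18.5%) had one in both WT and neither IkE5 library, against 3.9% and 4.69% of all H3K27ac regions of the genome. Foxo1 held 6 of the 10, Foxo3 held 2, and Klf2 and Il7r held 1 each. These 4 of 6 genes compare with 13.3% of all genes with any H3K27ac region. A gene with more regions has more chances to hold such a region, and Foxo1 alone held 28 of the 54. The 13.3% was not matched for this, and the 6 genes were chosen with earlier results of these data known. A further 16 regions (29.6%) were found in all 4 libraries, against 31.2% over the genome. When peaks were joined across gaps of up to 500 bp, the 10 regions became 4, and without WT library 2, when a peak in WT library 1 alone sufficed, they became 21.

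Factor regions found in both libraries of 1 genotype and in neither of the other were counted for p300, NFAT1 and Foxp3. For p300, 2 of 17 regions (11.8%) were found in both IkE5 and neither WT library, at S1pr1 and Ccr7, and 1 (5.88%) in both WT and neither IkE5 library, at Foxo1, against 6.01% and 5.63% of all p300 regions. For NFAT1, 1 of 14 regions (7.14%) was found in both IkE5 and neither WT library, at S1pr1, and 3 (21.4%) in both WT and neither IkE5 library, at Foxo1, Ccr7 and Il7r, against 3.72% and 19.4% of all NFAT1 regions. The NFAT1 share on the WT side was thus near the background. The IkE5 counts of 2 for p300 and 1 for NFAT1 are too small to set apart from the genome shares. Foxp3 had 0 of 23 regions in either class, where the genome had 3.22% and 2.44%, and 23 regions are too few to set 0 apart from those shares. An exact 2-sided permutation test of 2 against 2 libraries cannot go below p = 0.333, and no test was made on single regions. These counts rest on single libraries. Without WT library 2 the WT side held 8 regions for p300, 6 for NFAT1 and 7 for Foxp3, and without WT library 1 it held 5 for NFAT1. Without IkE5 library 2 the IkE5 side held 8 regions for H3K27ac and 5 for Foxp3, and the WT side 1 for Foxp3. Without IkE5 library 1 the IkE5 side held 4 regions for H3K27ac.

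**Figure D1:**
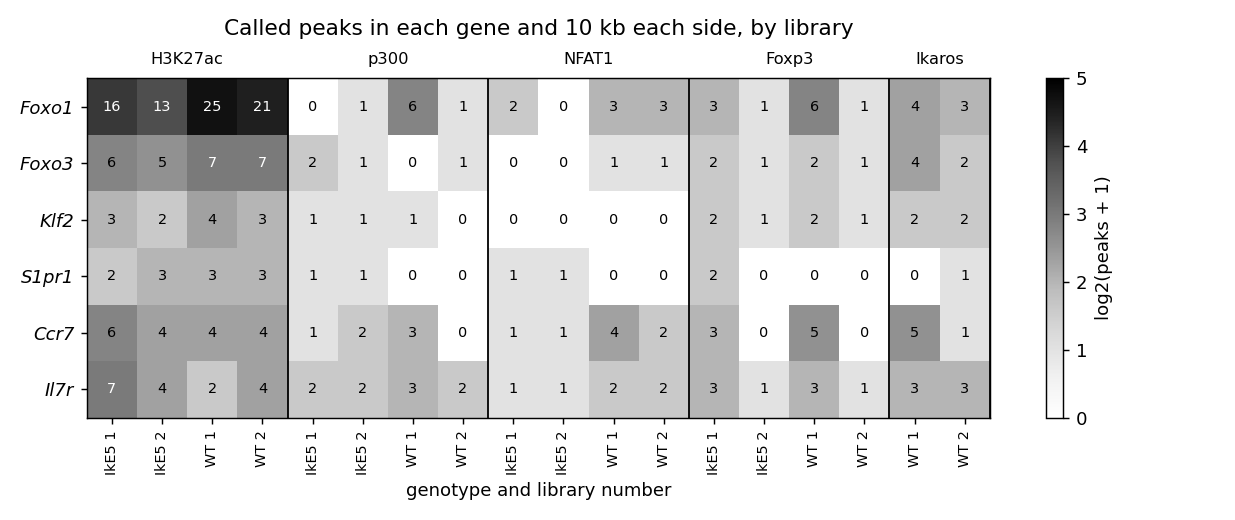
Number of called peaks in each gene and 10 kb on either side (rows) for each library (columns, grouped by target, with IkE5 left of WT and Ikaros in WT only); the number is printed in each cell and grey shows log2(peaks + 1). Foxo1 has 16 and 13 H3K27ac peaks in IkE5 and 25 and 21 in WT, and S1pr1 has p300 and NFAT1 peaks in both IkE5 and neither WT library.

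Foxo1 (chr3:52268337-52350109, mm10) held fewer H3K27ac peaks in both IkE5 libraries than in either WT library. Its window had 16 and 13 H3K27ac peaks in the IkE5 libraries and 25 and 21 in the WT libraries. They covered 27.3 and 23.8 kb in IkE5, against 39.5 and 34.2 kb in WT, so both IkE5 libraries lay below both WT libraries. Regions called in all 4 libraries numbered 6, and a region missing from either genotype is by definition not among them. Within those regions H3K27ac covered 24.9 and 22.5 kb in IkE5 and 27.6 and 25.1 kb in WT, whereas elsewhere in the window it covered 2.37 and 1.27 kb in IkE5 and 11.9 and 9.08 kb in WT.

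The widest of the shared H3K27ac regions of Foxo1 lay at the promoter and inside the gene. The promoter region (chr3:52266554-52275930) covered 9.04 and 8.97 kb in IkE5 and 8.94 and 9.3 kb in WT, and a region inside the gene (chr3:52291494-52305423) covered 10.9 and 9.93 kb in IkE5 and 12.9 and 12.1 kb in WT. The 6 regions called in both WT and neither IkE5 library were narrow, from 0.749 to 1.56 kb wide. One lay 10.3 kb before the start of the gene (chr3:52257591-52258447), and the others lay inside it, 14.2, 20.7, 40.4, 52.6 and 73.8 kb after the start, the widest at chr3:52320196-52321752.

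**Figure D2:**
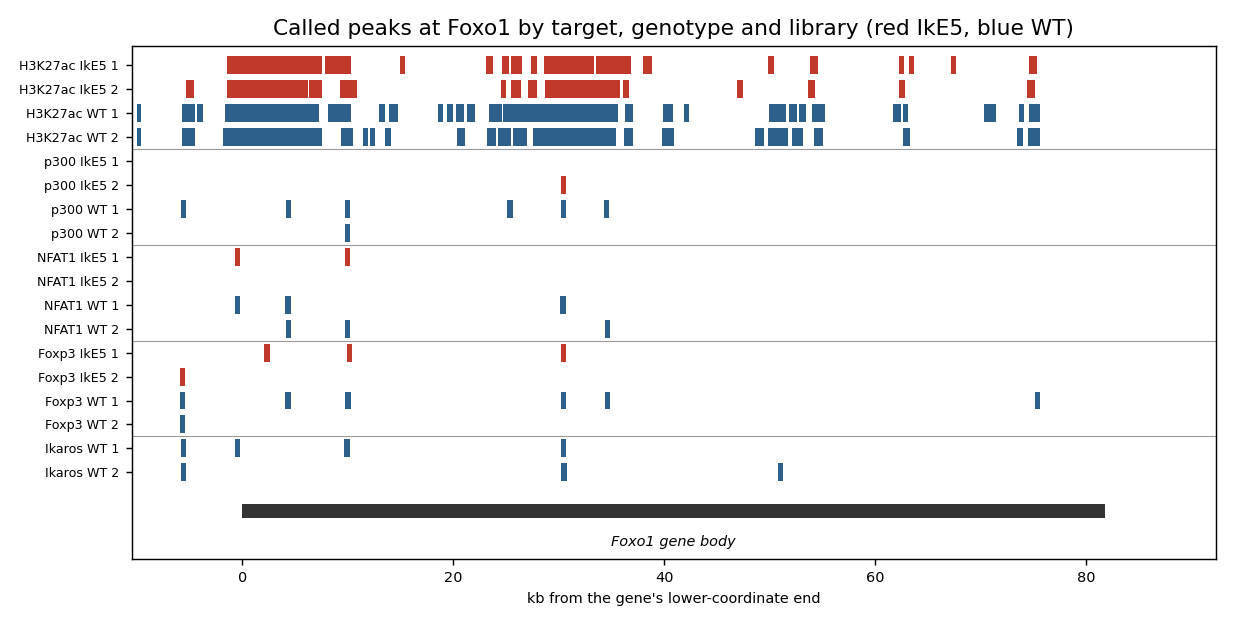
Called peaks at Foxo1 and 10 kb on either side, with each row a library (red IkE5 above blue WT for each target), each block a peak and the x axis the distance in kb from the lower-coordinate end of the gene, where it starts. The acetylated promoter and the broad region around 30.1 kb are present in all 4 H3K27ac libraries, and narrow blocks between them and after them are mostly blue.

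Factor peaks at Foxo1 lay at 10 sites, counting overlapping peaks of p300, NFAT1, Foxp3 and Ikaros as a single site, of which 4 had a peak in 1 library only. p300 had 0 and 1 peaks in IkE5 and 6 and 1 in WT, so WT library 1 stood apart. NFAT1 had 2 and 0 peaks in IkE5 and 3 and 3 in WT, and Foxp3 had 3 and 1 in IkE5 and 6 and 1 in WT. The p300 region found in both WT and neither IkE5 library (chr3:52278037-52278558) lay 9.96 kb after the start of the gene. NFAT1 was found there in 1 IkE5 and 1 WT library, as was Foxp3, and Ikaros in 1 of its 2 libraries. The NFAT1 region found in both WT and neither IkE5 library (chr3:52272420-52272979) lay 4.36 kb after the start, inside the acetylated promoter region, and carried p300 and Foxp3 peaks in WT library 1. Ikaros had a peak in both libraries at 2 sites, 5.56 kb before the start (chr3:52262514-52263032), where Foxp3 was found in both WT and 1 IkE5 library, and 30.5 kb after it (chr3:52298517-52299101), inside the broad acetylated region.

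Foxo3 (chr10:42181845-42276695), the close relative of Foxo1 that shares its DNA motif and many of its targets, had a smaller share of its window acetylated. H3K27ac covered 9.2% and 8.02% of the window in IkE5 and 11.1% and 12.1% in WT, against 26.8% and 23.4% in IkE5 and 38.8% and 33.6% in WT for Foxo1. Its 2 regions called in both WT and neither IkE5 library lay 84.7 and 57.6 kb after the start, deep in the gene, and beside the second a region at chr10:42219573-42221510 covered 0 and 0.666 kb in IkE5 and 1.94 and 1.78 kb in WT. The promoter region (chr10:42273588-42279114) covered 4.3 and 4.85 kb in IkE5 and 5.22 and 5.53 kb in WT. The one site with Foxp3 in all 4 libraries (chr10:42277651-42278315) lay 1.29 kb before the start, with p300 in both IkE5 and 1 WT library and NFAT1 in 1 WT library. Ikaros had 6 regions at Foxo3, each in only 1 of its libraries, and none overlapped that Foxp3 site.

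Scaled to the total covered length of each library, the H3K27ac length of the 6 genes gave no difference past the threshold in a fit without a replicate block. The test was limma on log2(scaled covered length + 1000 bp) over 12714 genes, and it called 0.385% of them lower and 0.739% higher in IkE5 at an adjusted p below 0.05. Without scaling, or with scaling to the length covered in shared regions, it called 0 genes, with 1156 and 1732 at an unadjusted p below 0.05. Of the 6 genes 0 were called, and 1 (Foxo1) had an unadjusted p below 0.05, as did 12.9% of all genes. Foxo1 had 25.2 and 25.8 kb of scaled covered length in IkE5 and 33.4 and 42.1 kb in WT, means of 25.5 ± 0.474 and 37.8 ± 6.16 kb (SD, n = 2 each), and a log2 difference of -0.54 ± 0.20 (SE, IkE5 minus WT, limma adjusted p = 0.289). Foxo3 had 9.75 and 9.99 kb in IkE5 and 10.7 and 17.1 kb in WT, a log2 difference of -0.42 ± 0.25 (SE, limma adjusted p = 0.571). At both forkhead genes the IkE5 libraries lay below the WT libraries, a pattern seen in 21.1% of all genes. With the library number as a replicate block, a pairing the labels do not state, Foxo1 passed the threshold (limma adjusted p = 0.041). That fit called 611 genes lower and 639 higher in IkE5.

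The log2 differences of Klf2, S1pr1, Ccr7 and Il7r were smaller in size than those of the forkhead genes, but no difference between genes was tested. This order did not hold without WT library 2, where Foxo3 lay at -0.11 and Il7r at 0.38. Klf2 had 8.02 and 9.39 kb of scaled covered length in IkE5 and 8.14 and 10.4 kb in WT, and S1pr1 had 10.3 and 10.3 kb in IkE5 and 9.68 and 15.1 kb in WT. Ccr7 had 17.0 and 23.0 kb in IkE5 and 18.4 and 26.0 kb in WT. The libraries of these 3 genes overlapped between the genotypes, and their log2 differences were -0.08 ± 0.22, -0.21 ± 0.24 and -0.14 ± 0.24 (SE, limma adjusted p of 0.982, 0.881 and 0.953). Il7r had 16.6 and 16.4 kb in IkE5 and 12.5 and 16.2 kb in WT, with both IkE5 libraries above both WT libraries, as in 18.5% of all genes, and a log2 difference of 0.20 ± 0.21 (SE, limma adjusted p = 0.857). The median over the 6 genes was -0.17, beside -0.02 over all genes tested. As a share of its window, H3K27ac was higher at Ccr7 and lower at Foxo3 than at any of the others in every library. Between them the order differed by genotype. In IkE5 S1pr1, Klf2 and Il7r lay above Foxo1, with the range of Il7r overlapping those of S1pr1 and Klf2. In WT S1pr1 lay above Klf2, Foxo1 and Il7r, with the range of Foxo1 overlapping those of Klf2 and Il7r. Klf2 ran from 38.3% to 38.4% in IkE5 and from 37.4% to 42.6% in WT, S1pr1 from 38.7% to 45.5% in IkE5 and from 46.5% to 49.8% in WT, and Il7r from 34.6% to 41.0% in IkE5 and from 30.0% to 33.7% in WT.

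**Figure D3:**
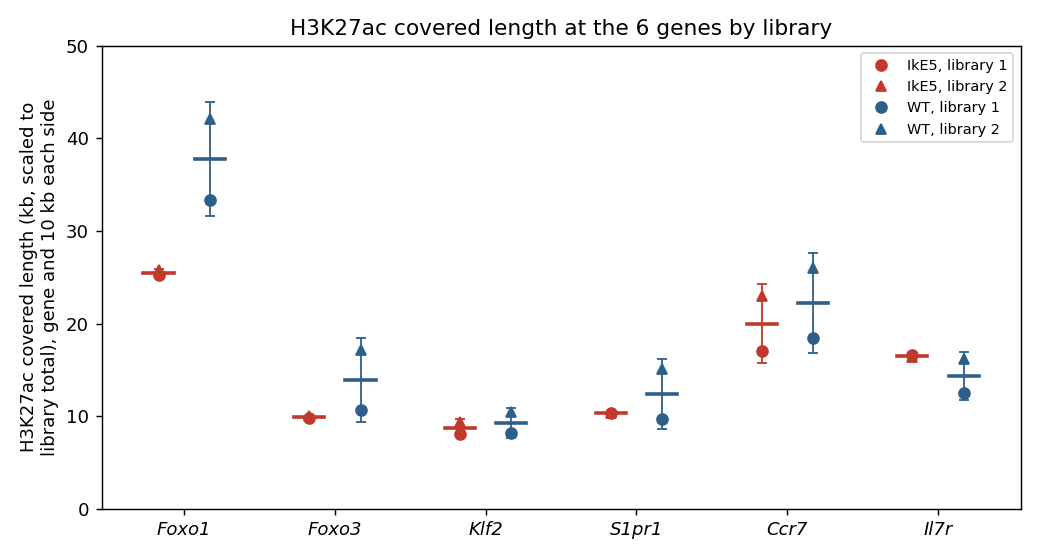
H3K27ac covered length in kb, scaled to the library total, in each gene and 10 kb on either side; red is IkE5 (left) and blue is WT (right), circles are library 1 and triangles library 2, lines are means and bars SD of 2 libraries. The IkE5 libraries of Foxo1 sit at 25.2 and 25.8 kb, below the WT libraries at 33.4 and 42.1 kb, while those of Klf2, S1pr1 and Ccr7 overlap.

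**Figure D4:**
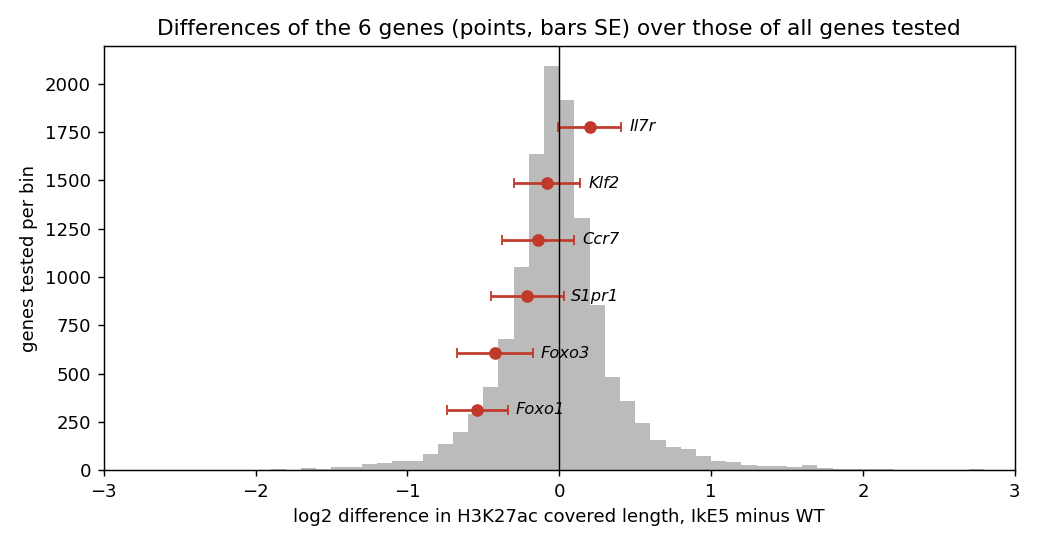
Log2 difference in scaled H3K27ac covered length (IkE5 minus WT, limma) of the 6 genes, as points with SE bars placed at arbitrary heights, over the histogram of the same difference for all 12714 genes tested (grey, genes per bin). Foxo1 at -0.54 and Foxo3 at -0.42 lie on the lower flank of the histogram and Il7r at 0.20 on the upper side.

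Klf2 (chr8:72319062-72321654), a zinc finger factor of quiescent T cells, had Ikaros at its promoter and differed little in H3K27ac over the gene itself. The region over the gene (chr8:72317451-72325037) covered 7.17 and 7.06 kb in IkE5 and 7.13 and 7.31 kb in WT. Ikaros had a peak in both libraries at chr8:72318550-72319126, and Foxp3 had one there in 1 WT library. The 180 bases before the start of the gene (chr8:72318882-72319061, plus strand, RefSeq GRCm38.p6), shown because the Ikaros peaks overlapped 180 and 168 of them, read 5′ to 3′, with motif matches in capitals:

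Klf2: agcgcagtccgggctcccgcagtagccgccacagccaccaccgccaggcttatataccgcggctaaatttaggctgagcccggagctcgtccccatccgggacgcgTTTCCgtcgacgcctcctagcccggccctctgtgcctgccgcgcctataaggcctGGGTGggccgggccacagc

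The capitals mark a match to GGAAA (the core of NFAT sites) and a match to CACCC (bound by Kruppel-like factors), both on the opposite strand. Of 13148 promoters of the same length, 43.8% held GGAAA and 41.8% held CACCC. The letters TGGGAA of Ikaros sites (15.3% of promoters), GTAAACA of forkhead sites (1.79%), TGANTCA of AP-1 sites (4.65%) and GGAAG of Ets sites (53.3%) were not in this window, on either strand; GGAAA can overlap TGGGAA.

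The second Klf2 site lay 9.49 kb beyond the end of the gene (chr8:72330842-72331440 for Foxp3) and had Foxp3 in all 4 libraries, Ikaros in both of its libraries, and p300 in both IkE5 and 1 WT library. H3K27ac there (chr8:72329722-72332105) covered 1.96 and 2.02 kb in IkE5 and 1.24 and 0.632 kb in WT, the only shared acetylated region of Klf2 in which both IkE5 libraries exceeded both WT libraries, chosen after its values were seen. A region between gene and site (chr8:72325255-72325792) was called in both WT and neither IkE5 library. No NFAT1 peak was called in the Klf2 window in any of the 4 NFAT1 libraries.

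S1pr1 (chr3:115710433-115715055), the sphingosine 1-phosphate receptor by which lymphocytes leave lymph nodes, had p300 and NFAT1 peaks in IkE5 cells at a site where WT cells had none. Both factors had 1 and 1 peaks in IkE5 and 0 and 0 in WT, at chr3:115708938-115709470 for p300 and chr3:115708887-115709521 for NFAT1, 1.23 kb below the lower-coordinate end of the gene. Foxp3 had a peak there in IkE5 library 1 and in no other library, and Ikaros had none. The site lay inside a region of H3K27ac (chr3:115704133-115717292) that covered 11.2 and 9.54 kb in IkE5 and 11.5 and 11.8 kb in WT. Over the genome, 134 of 18546 p300 regions (0.723%) were in both IkE5 and neither WT library and overlapped an NFAT1 region of the same kind. p300 regions in both IkE5 and neither WT library numbered 1115 in all. This pattern was defined after the S1pr1 values were seen, and Bcl2, named below, held such a pair too. The NFAT1 lists of IkE5 were shorter than those of WT, and the part of list length in the NFAT1 result at S1pr1 was not tested.

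Ccr7 (chr11:99144199-99155077), the chemokine receptor that guides T cells into lymph nodes, had the largest share of its window acetylated. H3K27ac covered 59.8% and 68.8% of its window in IkE5 and 70.7% and 68.2% in WT. Each of its 5 factor sites had at least 3 of the 4 factors, counting a peak in at least 1 library of either genotype. A p300 region found in both IkE5 and neither WT library lay at the lower-coordinate end of the gene (chr11:99143688-99144286), overlapped by NFAT1 in 1 IkE5 and 1 WT library and by Foxp3 likewise. An NFAT1 region found in both WT and neither IkE5 library lay 7.55 kb below that end (chr11:99136380-99136913). The site 6.77 kb above the higher-coordinate end (chr11:99161569-99162130 for NFAT1) had NFAT1 in 1 IkE5 and both WT libraries and p300 and Foxp3 in 1 library of each genotype.

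The Foxp3 peaks of Ccr7 were split by library rather than by genotype. Foxp3 had 3 and 0 peaks in IkE5 and 5 and 0 in WT, so all 8 came from the libraries numbered 1. Ikaros likewise had 5 peaks in library 1 and 1 in library 2. Over the 6 genes Foxp3 had 15 and 4 peaks in IkE5 and 18 and 4 in WT. Of the peaks of library 1 at these genes, 20.0% in IkE5 and 22.2% in WT overlapped a peak of library 2, against 52.2% and 53.0% over the genome. For p300 in WT the corresponding share was 23.1%, against 60.0% over the genome, and for p300 in IkE5 85.7%, against 55.6%.

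**Figure D5:**
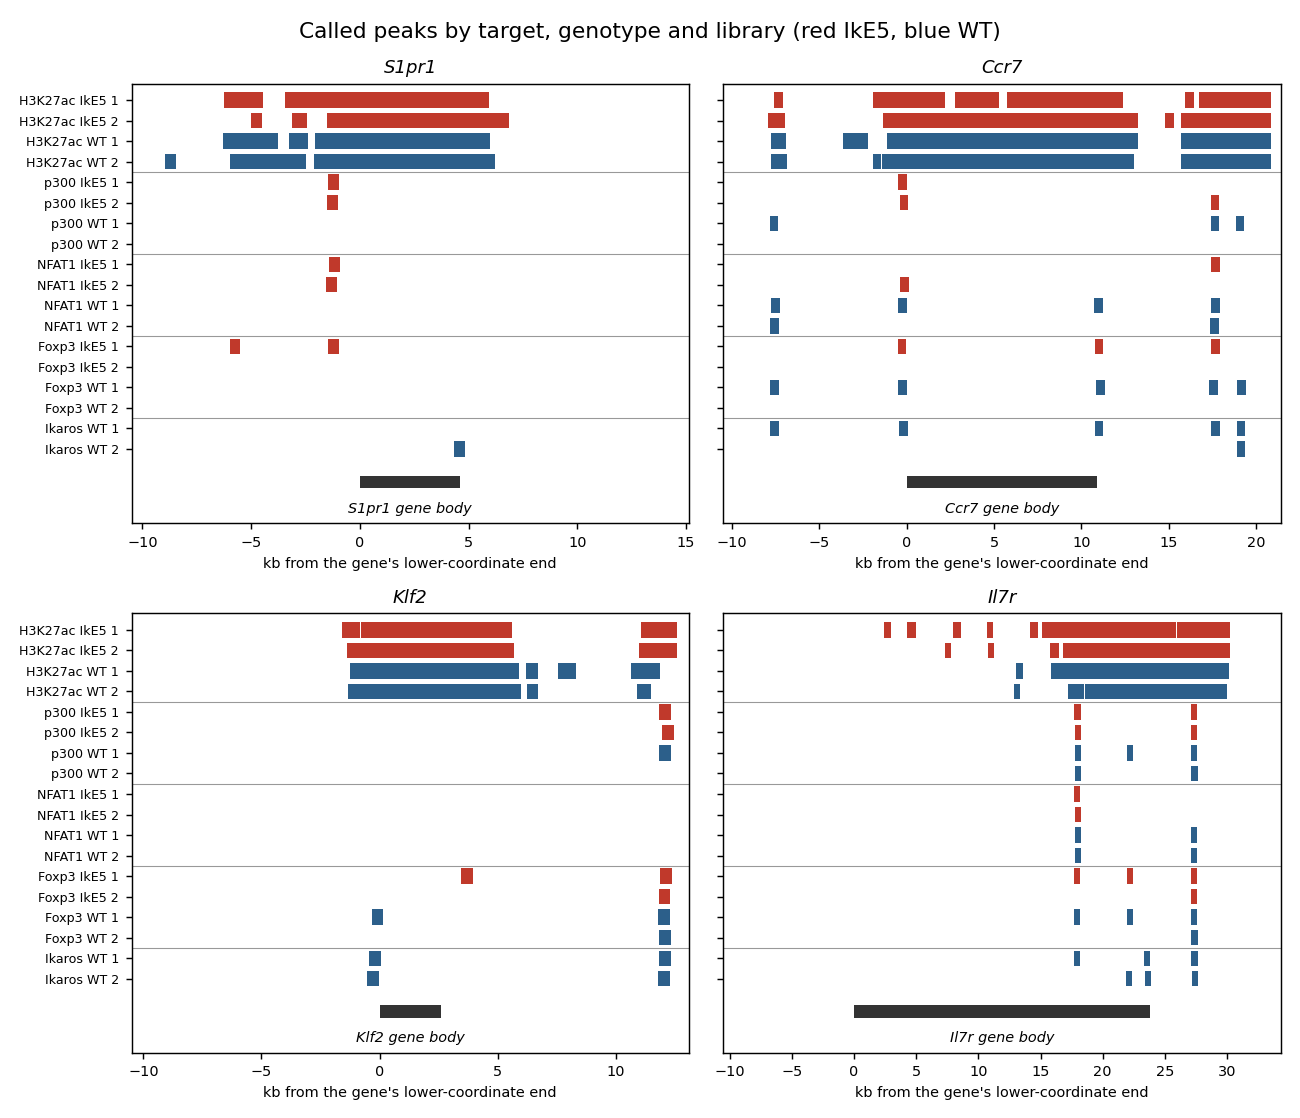
Called peaks at S1pr1, Ccr7, Klf2 and Il7r and 10 kb on either side, with each row a library (red IkE5 above blue WT for each target), each block a peak and the x axis the distance in kb from the lower-coordinate end of the gene. The p300 and NFAT1 blocks of S1pr1 are red only, and at Il7r the NFAT1 blocks near 27.3 kb are blue only while p300 and Foxp3 are present there in all 4 libraries.

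Il7r (chr15:9506159-9529941) encodes the alpha chain of the interleukin 7 receptor, which sustains resting T cells and is low on most Treg cells. Of its 4 factor sites 2 were found in 12 and 11 of the 14 factor libraries, the most of any site at the 6 genes. The first, 3.59 kb before the start of the gene (chr15:9533226-9533836), had p300 and Foxp3 in all 4 libraries of each and Ikaros in both of its libraries. NFAT1 was found there in both WT and neither IkE5 library (chr15:9533234-9533762). Of all NFAT1 regions of the genome, 5.92% had this pattern, found in both WT and neither IkE5 library and overlapping a p300 region of all 4 libraries. That was 656 of 11087 regions, of which 2152 were found in both WT and neither IkE5 library. The pattern was defined after the values of this site were seen. The second, 5.81 kb after the start inside the gene (chr15:9523868-9524397), had NFAT1 and p300 in all 4 libraries of each and Foxp3 in 1 library of each genotype. Of the 2 NFAT1 regions of Il7r, 1 was thus called in IkE5 and both in WT, and the lower number of NFAT1 peaks of the IkE5 lists moves with that result; its part was not tested.

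Ikaros also lay at the start of Il7r in both libraries (chr15:9529500-9530032), where none of the other factors had a peak. Its peaks overlapped 58 and 91 of the 180 bases before the gene (chr15:9529942-9530121, minus strand, RefSeq GRCm38.p6), which are shown for comparison with Klf2 and read 5′ to 3′ on the strand of the gene:

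Il7r: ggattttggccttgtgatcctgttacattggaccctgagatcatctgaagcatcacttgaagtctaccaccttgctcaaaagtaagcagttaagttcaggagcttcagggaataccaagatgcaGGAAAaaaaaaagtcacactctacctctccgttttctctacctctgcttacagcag

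The capitals mark a match to GGAAA, and the other 5 motifs had 0 matches in this window. Only whole matches count: the window holds GGGAA, which is TGGGAA without its leading T. The promoter table held 4 of the 6 genes, and S1pr1 and Ccr7 are not in it. Foxo1 had 1 match to GGAAA and 1 to GGAAG, and Foxo3 had 0 matches to any of the motifs.

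The widest H3K27ac region of Il7r lay over its start. The region from inside the gene to beyond its start (chr15:9521313-9536412) covered 15.0 and 14.2 kb in IkE5 and 14.3 and 12.6 kb in WT. Further inside the gene the lists disagreed. A region 12.8 kb after the start (chr15:9516851-9517439) was found in both IkE5 and neither WT library, and a neighbour 10.6 kb after the start (chr15:9518992-9519718) in both WT and neither IkE5 library. Of the other 5 regions outside the shared one, 4 were in IkE5 library 1 only and 1 in IkE5 library 2 only.

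Across the 6 genes, 24 of 32 factor sites overlapped H3K27ac in all 4 libraries and 1 overlapped none. Of all factor sites of the genome, in and outside genes, 50.2% overlapped it in all 4. That share was not matched for H3K27ac covered length, in which the 6 genes ranked high, at percentiles 85.4 (Klf2) to 98.5 (Foxo1) of genes tested. All 4 factors were found, in at least 1 library of either genotype, at 7 sites, of which 3 were at Ccr7, 2 at Foxo1 and 2 at Il7r. In WT, 4 regions at these genes had Foxp3 in both libraries, and 3 of them, at Foxo1, Klf2 and Il7r, overlapped a region with Ikaros in both libraries (75.0%, against 86.3% over the genome). The exception was Foxo3. With Foxp3 library 1 alone, the share at the 6 genes was 33.3%.

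Of 61 other genes of the same pathways, in 5 lists, 60 were tested for H3K27ac, and Sesn1 was the only one called. Over all genes tested, limma called 0.385% lower and 0.739% higher in IkE5. Sesn1 encodes a sestrin that restrains growth signalling and is a known Foxo target. It had 5.16 and 6.95 kb of scaled covered length in IkE5 and 19.5 and 26.8 kb in WT, a log2 difference of -1.77 ± 0.24 (SE, limma adjusted p = 0.0161). Both IkE5 libraries lay below both WT libraries, as in 21.1% of all genes tested. It held 5 H3K27ac regions found in both WT and neither IkE5 library, from 5.94 to 57.5 kb after its start, among them chr10:41838162-41839828. The one farthest from the start (chr10:41867386-41868837) lay on the same chromosome as Foxo3 (chr10:42181845-42276695), close to it. Whether both genes differ as part of a single stretch was not tested. Without scaling the log2 difference was -1.74 (limma adjusted p = 0.161), and with scaling to the length covered in shared regions it was -1.76 (limma adjusted p = 0.0706), so the call was lost while the difference hardly moved.

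Over all 5 lists, of 60 genes tested 1 was called lower and 0 higher in IkE5, against 0.385% and 0.739% of all genes tested. Their median log2 difference was -0.11, beside -0.02 over all genes. Of the 60 genes 40 lay below 0 and 20 above, against 53.7% and 46.3% of all genes tested. Among Foxo target genes of quiescence 5 of 10 had an H3K27ac region found in both WT and neither IkE5 library and 0 the reverse, and 1 was called. The shares over all genes with a region were 13.3% and 11.2%, not matched for the number of regions per gene. The list, too, was chosen with earlier results of these data known. Bcl2l11, which encodes the death protein Bim, had 2.94 and 7.15 kb in IkE5 and 8.79 and 14.0 kb in WT, a log2 difference of -1.10 ± 0.35 (SE, limma adjusted p = 0.195). None of the 13 tested genes of the list of Foxo upstream kinases and relatives was called, with a median of 0.07. The 6 Kruppel-like relatives of Klf2 and the 9 genes of interleukin 7 receptor signalling had medians of -0.11 and -0.15, again with 0 called. Of the 22 genes of lymphocyte trafficking 0 were called, with a median of -0.15. At the ends of that list, Ccr2, a receptor gene of inflammatory homing, had 9.64 and 3.57 kb in IkE5 and 3.66 and 0.616 kb in WT, a log2 difference of 1.34 ± 0.50 (SE, limma adjusted p = 0.289), with overlap between the IkE5 and WT libraries. Ccr9, a gut homing receptor gene, had 3.36 and 4.49 kb in IkE5 and 7.12 and 13.3 kb in WT, a log2 difference of -1.14 ± 0.29 (SE, limma adjusted p = 0.109), and 2 H3K27ac regions in both WT and neither IkE5 library.

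Counted over genes, 9 of the 61 had an H3K27ac region in both IkE5 and neither WT library and 17 the reverse (14.8% and 27.9%, against 11.2% and 13.3% of all genes with a region). The most on the WT side after Sesn1 were 3 at Itga4, an integrin chain, and 2 each at Bcl2, a survival gene, Ccr9 and Klf13. On the IkE5 side Pik3r1, a regulatory subunit of phosphoinositide 3-kinase, had 3, and Ccr4, a chemokine receptor of skin homing, Jak1, a cytokine receptor kinase, and Pdpk1, the kinase that activates Akt, had 2 each, while Dock2, a regulator of lymphocyte migration, had 1. For p300, 6 and 9 of 55 genes had such a region (10.9% and 16.4%, against 8.56% and 11.3%), for NFAT1 5 and 18 of 51 (9.8% and 35.3%, against 4.61% and 31.1%), and for Foxp3 5 and 7 of 61 (8.2% and 11.5%, against 7.25% and 6.31%). The NFAT1 share on the WT side was again near the background. None of these shares over all genes was matched for the number of regions per gene, and Bcl2, for instance, held 53 H3K27ac regions.

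Ccr4 had 2 p300 regions found in both IkE5 and neither WT library, of which chr9:114509731-114510355 overlapped an H3K27ac region found in both IkE5 and neither WT library (chr9:114509411-114510539). Bcl2 also had 2, and S1pr4, a further sphingosine 1-phosphate receptor gene, and Pdpk1 had 1 each. On the WT side 9 listed genes had 1 p300 region each, and the first 5 by name were Coro1a, Cxcr4, Cxcr5, Dock2 and Gnai2. Of the 9, 6 were in the list of lymphocyte trafficking. That list, the largest, held 19 of the 55 genes with any p300 region and 3 of the 6 on the IkE5 side.

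Among the remaining named regions, NFAT1 was found in both IkE5 and neither WT library at 2 sites before the start of Klf13, a Kruppel-like factor gene, and at 1 site each of Bcl2, Ccr2 and Pik3r1. The reverse held at 2 sites each of Bcl2, Dock2 and Rgs1, a brake on chemokine receptor signals, and at 1 site each of Bcl2l11 and Cd69, whose product removes S1pr1 from the cell surface. For Foxp3 the IkE5 side held single regions at Cd69, Itgb7, Jak1, Jak3 and Pik3r1, and the WT side at Cish, Cxcr4, Klf4, Pik3cd and Pik3r1. These genes are the ones with the most such regions by count and then by name, at most 5 on a side.

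The genes whose peak numbers over the 18 libraries were most like those of each gene were compared on log2(scaled peaks + 1), among 11335 genes with a peak in at least 9 libraries. The 18 values share 5 targets, which differ in number of peaks, so the coefficients describe this spread across targets as well. Lck (r = 0.97), Chd2 (0.95) and Prkcq (0.938) were most like Foxo1, and Sipa1l2 (0.962), Fbxo32 (0.947) and Stk10 (0.946) most like Foxo3. Fam118a (0.983), Gatad2b (0.981) and Gmeb2 (0.974) were most like Klf2, and Egln3 (0.961), Fam20a (0.871) and Stra6 (0.87) most like S1pr1. Aif1 (0.857), Ccr8 (0.849) and Adtrp (0.848) were most like Ccr7, and Slc15a3 (0.88), Acadvl (0.869) and Zfp41 (0.863) most like Il7r.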

How the data were processed

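The deposited files were one peak list per library, each holding the chromosome, start and end of a peak and no score, height or p-value. Per the submitters' processing notes, HOMER, MACS2, Bowtie2, FastQC and bedtools were used, on mm10; the caller, its threshold and the input used are not given in the sources used here. All but at most 1 factor peak per list were 500 bp wide, so only H3K27ac widths carry a graded value. The 4 inputs among the 22 samples have no list in use here. Gene ends came from RefSeq GRCm38.p6 (21887 protein-coding genes, 6 of 6 members matched), the strand of 4 members from its promoter table. Peaks of a target's libraries overlapping by at least 1 bp were joined into regions. Covered bases per gene with 10 kb each side were scaled to the library total and tested on log2(length + 1000 bp) in limma 3.58.1 (R 4.3.3; trended prior; genes averaging 1000 bp or more), Benjamini-Hochberg at 0.05, after a check on simulated data. Fold changes on this scale understate those of genes with short coverage. The largest share of identical peaks in 153 pairs of lists was 0.745%, so no list was a copy of another. Each library was counted as 1 replicate, though this check cannot show that libraries came from separate animals or preparations. The members and lists were chosen with earlier results of these data known. Genes were named by rule: all members, listed genes called by limma, at most 5 listed genes per target and direction with most genotype-specific regions, and the 3 genes most like each member. Bcl2l11, Ccr2 and Ccr9 were named after their values were seen. Some listed genes count in the totals and are not reported here by name.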

Additional observations from a re-analysis of the deposited data

How the results depend on the processing

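The signs of the log2 differences of Foxo1 (-0.70 to -0.38), Foxo3 (-0.73 to -0.11) and Il7r (0.03 to 0.38) held under each of the 12 alternatives run, and 66 of 72 values for the 6 genes kept sign and side of the threshold. The number of the library is no pairing stated in the labels; deviations of the libraries numbered 1 correlated between genotypes at r = 0.46 over 12714 genes, and with the number as a replicate block Foxo1 passed at -0.54 (limma adjusted p = 0.041), with 611 genes called lower and 639 higher, against 49 and 94 without it. Leaving out 1 library in turn gave -0.24 to 0.08 for Klf2, with 0.03 without IkE5 library 1 and 0.08 without WT library 2. It gave -0.51 to 0.09 for S1pr1, with 0.09 without WT library 2, and -0.37 to 0.10 for Ccr7, with 0.07 without IkE5 library 1 and 0.10 without WT library 2. None of these passed the threshold. Genes called numbered 48 to 307 lower and 87 to 396 higher without 1 library; the lone library of a genotype is then assumed to vary like the others. limma called 0 and 0 without scaling (1156 at an unadjusted p below 0.05) and with scaling to shared regions (1732), 31 lower with a pseudocount of 500 bp, and 24 lower and 54 higher without the filter. The cause was not tested.

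Of H3K27ac regions found in both IkE5 and neither WT library there were 2 with a flank of 25 kb, 2 when joined from an overlap of 250 bp and 2 across gaps of 500 bp, and of the reverse 4 across such gaps. p300 had 1 on the IkE5 side in the gene body alone and 2 on the WT side with 25 kb. NFAT1 had 0 and 1 in the gene body alone and 7 on the WT side with 25 kb. Without 1 library the ranges were 1 to 8 and 11 to 21 for H3K27ac, 2 to 3 and 1 to 8 for p300, 1 to 1 and 3 to 6 for NFAT1, and 0 to 5 and 0 to 7 for Foxp3, since 1 list then stands for a genotype. The share of Foxp3 regions with Ikaros ran from 33.3% to 80.0%; in gene bodies alone no region had Foxp3 in both WT libraries, so it has no value there. A stricter peak threshold could not be tried, as the lists hold no scores.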
